A study of Mus musculus with 17 samples.

Results

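Gzma, Gzmb, Klrd1 and Cd160 were followed as 4 of the 988 genes of a targeted mouse immuno-oncology panel, in mouse colon after intraperitoneal injection of the colon carcinogen azoxymethane. The 4 genes were taken by symbol, and all 4 had counts in all 17 libraries. The groups were 6 Kit-W/sh tumors, 6 Kit-B6 tumors, 2 Kit-W/sh preneoplastic colons and 3 Kit-B6 preneoplastic colons. Tumors came from mice at postnatal week 32 that had received 6 azoxymethane injections over 6 weeks and were killed 18 weeks later. Preneoplastic colon came from mice at postnatal week 14 that had received 3 injections over 3 weeks and were killed 3 weeks later. Kit is intact in Kit-B6 mice, on a C57BL/6 background. Kit-W/sh mice carry the W-sash inversion near Kit, by which adults lack mast cells and other Kit-dependent cells are affected too. All groups had received the carcinogen, so no untreated colon entered any comparison.

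Cytotoxic T cells and natural killer (NK) cells kill by releasing granules whose perforin lets granzymes, a family of serine proteases, into the target cell. Granzyme A (Gzma) cuts after basic residues, and granzyme B (Gzmb) cuts after aspartate and can activate caspases. Granzyme B is also made by other cells in mice, among them regulatory T cells and mast cells. Klrd1 encodes CD94, which pairs with NKG2 chains to form receptors for the MHC class I molecule Qa-1, and Cd160 encodes a membrane receptor for HVEM (Tnfrsf14). In mouse gut, Cd160 and granzymes are known from intraepithelial lymphocytes, which lie among the epithelial cells.

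Because the comparison turned on the different behaviour of the 2 granzymes, their promoters are shown for reference. RefSeq promoter sequences (build GRCm38.p6, 250 bases before to 50 bases after the start) were matched by symbol for 3 of the 4 genes, and no sequence is shown for Klrd1. Gzma lies at chr13:113100932-113101231 and Gzmb at chr14:56262285-56262584, both on the minus strand, and each is written 5′ to 3′ in the gene's own direction.
Gzma: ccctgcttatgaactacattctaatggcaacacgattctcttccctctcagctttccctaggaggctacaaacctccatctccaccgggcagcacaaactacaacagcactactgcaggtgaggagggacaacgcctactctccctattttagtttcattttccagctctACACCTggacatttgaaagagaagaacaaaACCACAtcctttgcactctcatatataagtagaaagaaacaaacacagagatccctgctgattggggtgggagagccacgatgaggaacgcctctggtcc
Gzmb: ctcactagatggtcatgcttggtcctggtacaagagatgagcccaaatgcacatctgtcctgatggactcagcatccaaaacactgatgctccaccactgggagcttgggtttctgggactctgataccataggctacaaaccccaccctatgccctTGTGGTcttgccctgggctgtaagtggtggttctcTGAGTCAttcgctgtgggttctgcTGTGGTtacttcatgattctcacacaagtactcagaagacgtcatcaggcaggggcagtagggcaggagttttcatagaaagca
Capitals mark matches on either strand to AP-1 (TGANTCA), CRE (TGACGTCA), RUNX (TGTGGT) and T-box (AGGTGT) letters, where ACACCT and ACCACA are the T-box and RUNX letters read on the other strand. No matches overlapped. The Gzmb window held 1 AP-1 match and 2 RUNX matches, and the Gzma window held 1 RUNX and 1 T-box match. AP-1 letters stood in 7.81% of the 32851 mouse promoter windows in the table, RUNX letters in 16.8%, T-box letters in 13.7% and CRE letters, which neither window held, in 1.79%. These matches describe letters only, since no binding was measured.

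Library totals ran from 616009 to 1399902 counts. A floor of 3 counts corresponded to 2.14 to 4.87 CPM (counts scaled to a common library total), depending on the library. Levels below are CPM after TMM scaling, which adjusts library totals for composition. The genotype labels were checked with Kit, whose inversion spares the coding sequence, and with the mast cell protease Cpa3. Kit ran from 48.9 to 257.5 CPM across Kit-W/sh tumors against 93.7 to 473 CPM across Kit-B6 tumors, and was 127 and 113 CPM in Kit-W/sh against 268 to 521 CPM in Kit-B6 preneoplastic colon. Cpa3 was highest of all libraries, at 460 CPM, where the label reads Kit-W/sh tumor 2. It also held the 257.5 CPM of Kit, where the next Kit-W/sh tumor was at 99.5 CPM. That library goes against its label in Cpa3, and its Kit lay within the range of Kit-B6 tumors. Results that it moves are also given without it. RNA came from whole tissue, so fewer cells of a type and less RNA per cell cannot be told apart in any result here.

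**Figure D1:**
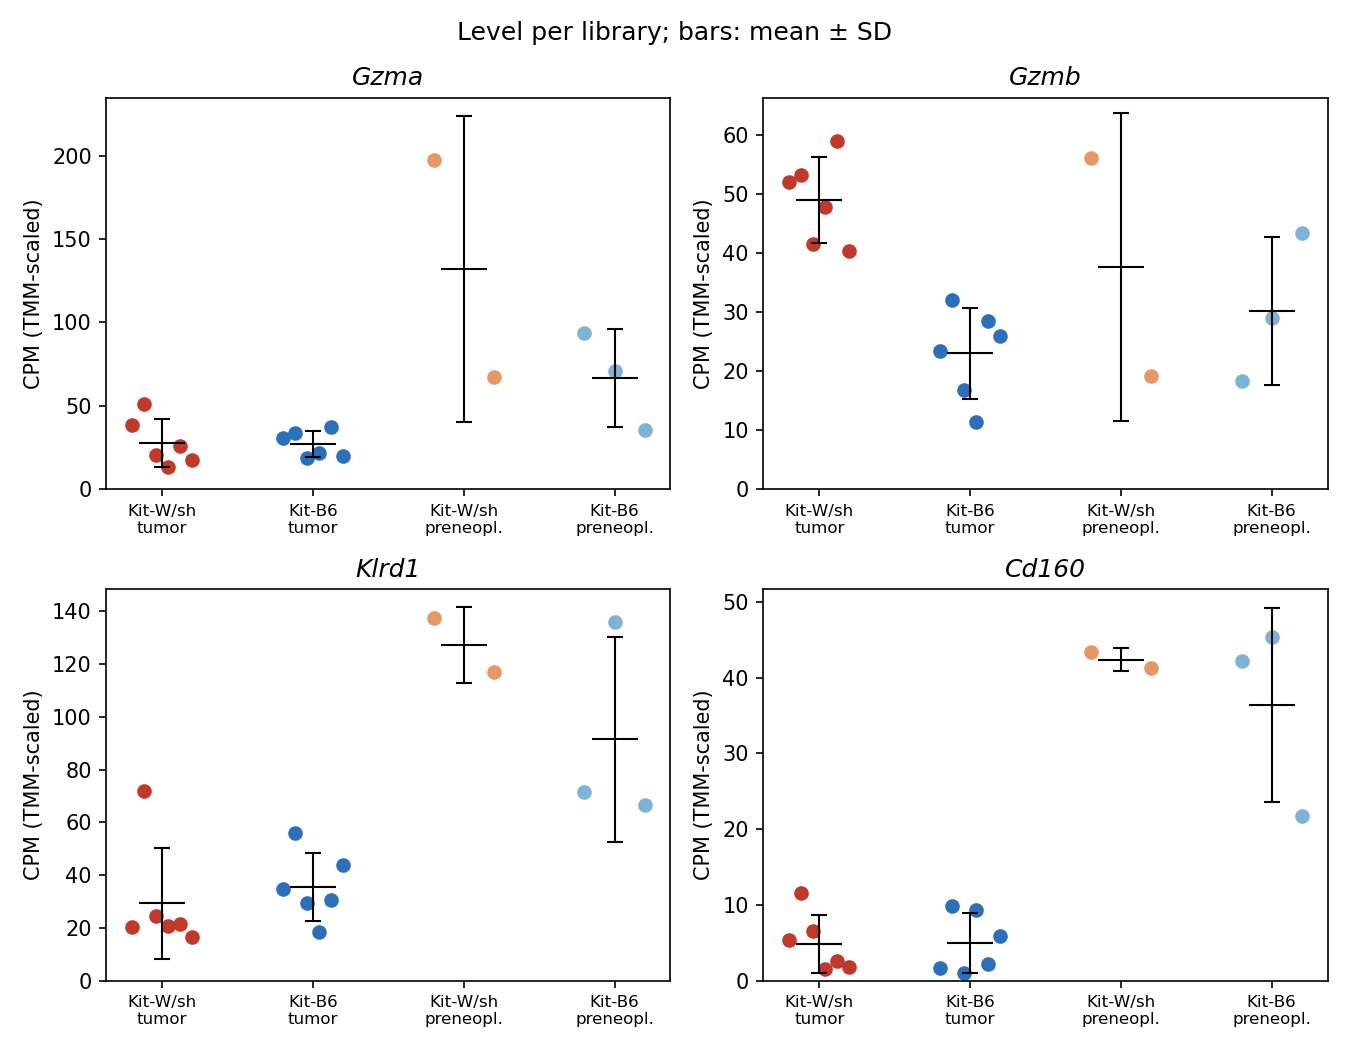
Level of Gzma, Gzmb, Klrd1 and Cd160 in CPM after TMM scaling (vertical axes from 0) for the 17 libraries, 1 point each, in 4 groups, with the mean ± SD as bars. Gzmb in Kit-W/sh tumors (40.3 to 59.1 CPM) lies above every Kit-B6 tumor (11.3 to 32.1 CPM), whereas Klrd1 and Cd160 are lower in tumors than in preneoplastic colon of the same genotype without overlap.

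Gzmb was the one of the 4 genes that stood apart between genotypes in tumors, with the higher level in Kit-W/sh tumors. It gave 69, 69, 51, 62, 69 and 44 counts in Kit-W/sh tumors 1 to 6, or 52.1, 53.2, 41.5, 47.8, 59.1 and 40.3 CPM, against 29, 23, 16, 11, 40 and 22 counts in Kit-B6 tumors 1 to 6, or 23.4, 32.1, 16.8, 11.3, 28.5 and 25.9 CPM. Every Kit-W/sh tumor lay above every Kit-B6 tumor, and Kit-B6 tumor 4 was the lowest of all 12. The means were 49.0 ± 7.23 CPM for Kit-W/sh and 23.02 ± 7.71 CPM for Kit-B6 tumors (SD, n = 6 each), which gave a log2 change of 1.07 ± 0.28 (SE), or 2.11-fold. The ratio of summed counts, each divided by library totals after TMM scaling, was 2.14 (95% exact interval 1.75 to 2.61, counting error only).

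The edgeR quasi-likelihood test did not call Gzmb over all genes (adjusted p = 0.154, unadjusted p = 0.00203, eighth smallest of 799 genes), and DESeq2 did (adjusted p = 0.00629). By edgeR, 0 of the 3 tested members and 0% of the 799 genes passed. At an unadjusted p under 0.05 there were 1 of 3 members and 13.6% of genes, and by DESeq2 1 of 3 members and 3.35% of genes (2.48% on the higher side). Groups that did not overlap were found for 1 of the 4 genes and for 0.626% of genes. Without the library labelled Kit-W/sh tumor 2 the log2 fold change was 1.04, and over all single libraries left out it ran from 0.91 to 1.17 with edgeR adjusted p of 0.0906 to 0.349.

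Marker genes of other cells were summed per library beside this difference. Of the 9 measured genes on the neutrophil list, the 5 receptors (Cxcr1, Cxcr2, Csf3r, Fpr1 and Fpr2) summed to 386 to 952 CPM across Kit-W/sh tumors against 76.2 to 400.5 CPM across Kit-B6 tumors. The whole list summed to 5312 to 20948 CPM for Kit-W/sh and 854 to 8532 CPM for Kit-B6 tumors, of which the chemokines Cxcl1, Cxcl2 and Cxcl5, which other cells also make, were 91.1% to 96.2%. The 18 measured T cell genes summed to 555 to 1353 CPM across Kit-W/sh tumors against 312 to 903 CPM across Kit-B6 tumors. The 7 regulatory T cell genes summed to 234 to 689 CPM for Kit-W/sh against 242 to 547 CPM for Kit-B6 tumors. Of the 6 regulatory T cell genes tested, 4 were positive and 2 negative between genotypes, with 0 called by edgeR. Il2ra was at 0.77 ± 0.43, Foxp3 at 0.53 ± 0.57 and Ctla4 at 0.45 ± 0.56 on the log2 scale. Tnfrsf4 (0.26), Tnfrsf18 (-0.00042) and Ikzf2 (-0.21) had higher levels and weigh more in the sum. The list's median was 0.36, and 0.03 without the library labelled Kit-W/sh tumor 2. The 10 mast cell genes summed to 276 to 1545 CPM in Kit-W/sh tumors and 467 to 1547 CPM in Kit-B6 tumors. The highest medians on this list in Kit-W/sh tumors were those of Hdc, Hpgds, Kit and Gata2 (159, 125, 80.0 and 46.6 CPM), while Cpa3 was at 3.12 CPM. Between genotypes Hdc was at 1.33 ± 0.32 on the log2 scale and Kit at -1.08 ± 0.48. Of the 7 mast cell genes tested, 2 were positive and 5 negative, with 0 called by edgeR. The library labelled Kit-W/sh tumor 2 had the highest T cell, regulatory T cell and mast cell sums of its group, and the other 5 reached 697, 436 and 639 CPM. Cpa3 was at 0 to 9.81 CPM in those 5. The part of neutrophils, mast cells and regulatory and other T cells in the Gzmb difference was not tested.

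Gzma, the other granzyme, had nearly equal averages in the tumors of both genotypes. It was at 38.5, 50.9, 20.4, 13.1, 25.7 and 17.4 CPM in Kit-W/sh tumors 1 to 6, against 30.7, 33.5, 18.9, 21.6, 37.1 and 20.0 CPM in Kit-B6 tumors 1 to 6. The groups overlapped over most of their range, and Kit-W/sh tumors included both the highest and the lowest value. The means were 27.7 ± 14.4 CPM for Kit-W/sh and 27.0 ± 7.74 CPM for Kit-B6 tumors (SD, n = 6 each), and the log2 fold change of 0.03 ± 0.37 had an edgeR adjusted p of 0.984. Its sign turned with DESeq2 size factors (-0.0013) and without the library labelled Kit-W/sh tumor 2 (-0.25 ± 0.34), so the data gave Gzma no direction.

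The contrast of the 2 granzymes was measured within each library as the ratio of Gzmb to Gzma counts, which does not depend on how libraries are scaled. Amplicons amplify unequally, so the ratio compares libraries and does not say which granzyme is more abundant. This contrast was chosen with earlier results of these data known. Gzma differed by only 0.03 between tumor genotypes on the log2 scale, so in tumors the ratio largely restates the Gzmb difference of 1.07. The ratio was 1.35, 1.05, 2.02, 3.57, 2.28 and 2.28 in Kit-W/sh tumors 1 to 6, against 0.766, 0.959, 0.892, 0.535, 0.771 and 1.29 in Kit-B6 tumors 1 to 6. All 6 Kit-W/sh tumors lay above the Kit-B6 median, and the only overlap was that Kit-B6 tumor 6 exceeded the library labelled Kit-W/sh tumor 2. The mean log2 ratio was 0.95 ± 0.63 in Kit-W/sh tumors and -0.25 ± 0.42 in Kit-B6 tumors (SD, n = 6 each), a difference of 1.21 or 2.31-fold. A two-sided exact permutation test gave p = 0.00433, adjusted over the 4 comparisons p = 0.0173, and 6 against 6 samples can give no p below 0.00216. The difference was 1.39 (exact permutation p = 0.00433, n = 5 and 6) without the library labelled Kit-W/sh tumor 2. It was 1.26 (exact permutation p = 0.00794, n = 5 each) when the library labelled Kit-W/sh tumor 2 and Kit-B6 tumor 4, the tumor with the lowest Gzmb, were both left out, a choice made after seeing the data.

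**Figure D2:**
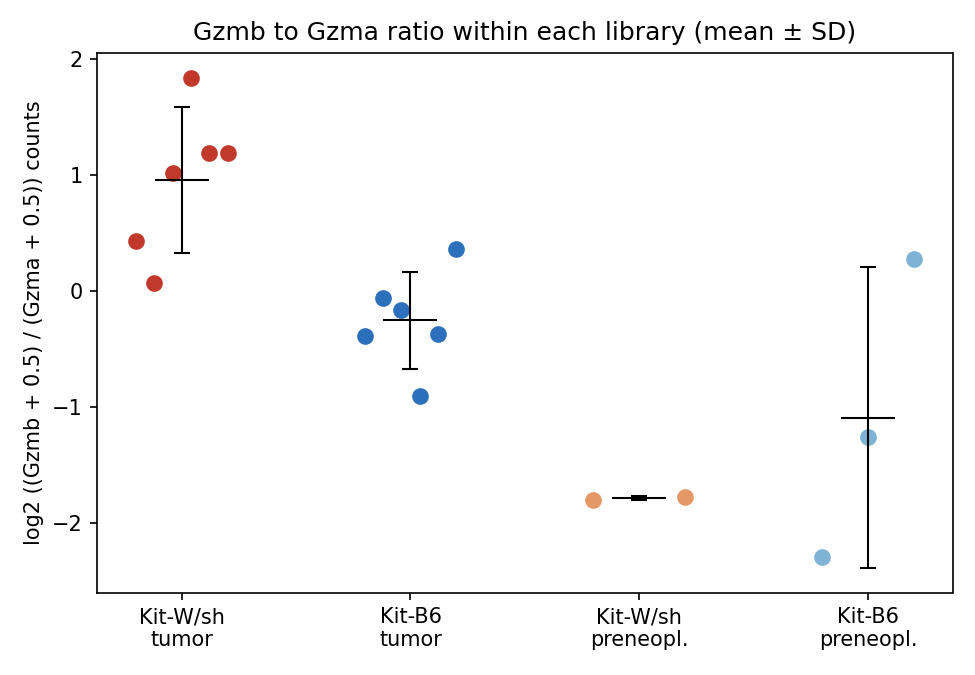
Ratio of Gzmb to Gzma counts within each library on a log2 scale, with 0.5 added to both counts, for the 4 groups, with the mean ± SD as bars. The mean is 0.95 in Kit-W/sh tumors, -0.25 in Kit-B6 tumors, -1.78 in Kit-W/sh preneoplastic colon and -1.09 in Kit-B6 preneoplastic colon, where the 3 samples spread widely.

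The receptor genes showed no genotype difference past the test in tumors. Klrd1 was at 20.4, 71.7, 24.4, 20.8, 21.4 and 16.5 CPM in Kit-W/sh tumors 1 to 6, against 34.7, 55.9, 29.4, 18.5, 30.6 and 43.6 CPM in Kit-B6 tumors 1 to 6. The library labelled Kit-W/sh tumor 2 held the highest Klrd1 of the 12 tumors, and 5 of the Kit-W/sh tumors lay below the Kit-B6 median. Klrd1 differed by -0.28 ± 0.41 on the log2 scale (edgeR adjusted p = 0.802) with that library and by -0.79 ± 0.31 (edgeR adjusted p = 0.192) without it. The ratio of Gzmb to Klrd1, a contrast chosen after the values were seen, was 2.90-fold higher in Kit-W/sh tumors (exact permutation p = 0.00433, n = 6 each). It shares the Gzmb counts with the granzyme ratio, so the tests of both ratios are not independent.

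Cd160 was close to the floor in tumors. It gave 7, 15, 8, 2, 3 and 2 counts in Kit-W/sh tumors 1 to 6, against 2, 7, 1, 9, 3 and 5 counts in Kit-B6 tumors 1 to 6, with 3 libraries in each group at or under 3 counts. It did not pass the filter on low counts there and was not tested in the main fit. Without the filter its log2 fold change was 0.03 ± 0.64 (edgeR unadjusted p = 0.968). DESeq2 gave -0.0072 ± 0.73 and no adjusted p. The ratio of summed counts after TMM scaling was 1.13 (95% exact interval 0.672 to 1.94, counting error only), so a difference was not detectable at this depth.

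In preneoplastic colon none of the 4 genes separated the genotypes. Gzma was at 197 and 67.4 CPM in Kit-W/sh samples 1 and 2, against 93.5, 70.7 and 35.6 CPM in Kit-B6 samples 1 to 3. Gzmb was at 56.1 and 19.3 CPM in Kit-W/sh samples, against 18.3, 29.0 and 43.4 CPM in Kit-B6 samples. For both granzymes 1 Kit-W/sh sample was the highest of the 5 and the other fell among the Kit-B6 samples. Klrd1 was at 137 and 117 CPM in Kit-W/sh against 71.5, 136 and 66.6 CPM in Kit-B6 samples. Cd160 was at 43.4 and 41.3 CPM in Kit-W/sh samples, against 42.2, 45.3 and 21.7 CPM in Kit-B6 samples. The groups overlapped for all 4 genes, while they did not overlap for 29.7% of genes.

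The log2 fold changes of Kit-W/sh over Kit-B6 preneoplastic colon were 0.96 ± 0.59 for Gzma, 0.26 ± 0.62 for Gzmb, 0.45 ± 0.41 for Klrd1 and 0.20 ± 0.46 for Cd160. By edgeR 0 of 4 passed (0.129% of 777 genes did), 0 of 4 had an unadjusted p under 0.05 against 10.7% of genes, and DESeq2 called 0 of the 2 to which it gave an adjusted p (3.35% of genes). Adjusted p-values by edgeR ran from 0.554 to 0.904. The Gzma difference rested on Kit-W/sh sample 1, without which it was -0.03 ± 0.71. The ratio of Gzmb to Gzma was 0.288 and 0.293 in Kit-W/sh samples against 0.204, 0.418 and 1.21 in Kit-B6 samples (difference -0.69 on the log2 scale, exact permutation p = 0.6, n = 2 and 3, where the smallest possible is 0.2).

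Between stages, Gzma, Klrd1 and Cd160 fell in tumors relative to preneoplastic colon of the same genotype, and Gzmb was not called in either genotype. In Kit-W/sh mice Gzma averaged 27.7 ± 14.4 CPM in tumors (n = 6) against 132 ± 91.7 CPM in preneoplastic colon (n = 2), and Klrd1 29.2 ± 21.0 CPM in tumors against 127 ± 14.5 CPM in preneoplastic colon. Cd160, the receptor for HVEM, averaged 4.88 ± 3.83 CPM in tumors against 42.3 ± 1.501 CPM in preneoplastic colon. For all 3 genes every Kit-W/sh tumor lay below both preneoplastic samples. The log2 fold changes were -2.25 ± 0.49 for Gzma (edgeR adjusted p = 0.00254), -2.11 ± 0.49 for Klrd1 (adjusted p = 0.00367) and -3.07 ± 0.69 for Cd160 (adjusted p = 0.00300). Without the library labelled Kit-W/sh tumor 2 they were -2.51, -2.61 and -3.52. The genotype and stage comparisons share libraries and are not independent of each other.

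In Kit-B6 mice the same 3 genes fell. Cd160 averaged 4.96 ± 3.92 CPM in tumors (n = 6) against 36.4 ± 12.8 CPM in preneoplastic colon (n = 3), which gave a log2 change of -2.90 ± 0.65 (edgeR adjusted p = 0.00254). Klrd1 averaged 35.5 ± 12.9 CPM in tumors against 91.4 ± 38.7 CPM in preneoplastic colon (-1.37 ± 0.45, adjusted p = 0.0234). Both groups were apart for Cd160 and Klrd1 without overlap. Gzma averaged 27.0 ± 7.74 CPM in tumors against 66.6 ± 29.1 CPM in preneoplastic colon (-1.29 ± 0.46, adjusted p = 0.0314), and 1 tumor, at 37.1 CPM, lay above the lowest preneoplastic sample, at 35.6 CPM.

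Gzmb averaged 49.0 ± 7.23 CPM across Kit-W/sh tumors against 37.7 ± 26.02 CPM across Kit-W/sh preneoplastic colon (log2 fold change 0.39 ± 0.47, edgeR adjusted p = 0.517). It averaged 23.02 ± 7.71 CPM in Kit-B6 tumors against 30.3 ± 12.6 CPM in Kit-B6 preneoplastic colon (-0.40 ± 0.40, adjusted p = 0.432). In both genotypes the preneoplastic samples spanned or overlapped the tumor range, so Gzmb had no stage difference beyond the spread, and without Kit-W/sh preneoplastic sample 2 its sign in Kit-W/sh mice turned (-0.19 ± 0.55).

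In Kit-W/sh mice 3 of the 4 genes were called lower, where 18.8% of 869 genes were (39.7% in either direction), and 3 did not overlap on the lower side, where 28.7% of genes did not. In Kit-B6 mice 3 of 4 were called lower, where 18.9% of genes were (41.1% in either direction), and 2 did not overlap on the lower side, where 13.1% of genes did not. DESeq2 called the same number, 3 of 4, in each genotype (18.9% of genes lower in Kit-W/sh and 19.4% for Kit-B6). The call of Gzma in Kit-W/sh mice was lost without preneoplastic sample 1 (-1.28, adjusted p = 0.172). In Kit-B6 mice the call of Gzma was lost without preneoplastic sample 1 (-0.94, adjusted p = 0.171) or 2 (-1.25, adjusted p = 0.0850) or without tumor 3 (-1.22, adjusted p = 0.0567) or 6 (-1.22, adjusted p = 0.0571). The call of Klrd1 in Kit-B6 mice was lost without preneoplastic sample 2 (-0.95, adjusted p = 0.155). Without TMM scaling the median of all genes lay at 0.34 in Kit-W/sh and 0.24 for Kit-B6 mice, in place of 0.08 and -0.0027, and 70.1% and 73.0% of called genes were higher in tumors, in place of 52.8% and 54.1%. In Kit-B6 mice Gzma (-1.02, edgeR adjusted p = 0.0796) and Klrd1 (-1.10, adjusted p = 0.0690) then missed the threshold, while relative to the median of all genes they stood at -1.27 and -1.34, against -1.29 and -1.36 with scaling. Stage was tied to age, the number of injections and tissue, and these cannot be told apart.

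Whether the stage change differed between genotypes was tested directly. The difference of log2 fold changes, Kit-W/sh minus Kit-B6, was -0.95 ± 0.70 for Gzma, 0.79 ± 0.62 for Gzmb, -0.75 ± 0.70 for Klrd1 and -0.17 ± 1.02 for Cd160. By edgeR 0 of 4 passed (adjusted p = 0.831 to 0.973, 0% of 869 genes called), 0 of 4 had an unadjusted p under 0.05 against 7.25% of genes, and DESeq2 called 0 of 4 (0.104% of genes).

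The ratio of Gzmb to Gzma also measured whether the 2 granzymes changed alike between stages. In Kit-W/sh mice all 6 tumors, at 1.05 to 3.57, lay above both preneoplastic samples, at 0.288 and 0.293, a difference of 2.74 on the log2 scale or 6.67-fold. The exact permutation p was 0.0714 (n = 6 and 2), the smallest that this design allows, so the test could not pass 0.05. In Kit-B6 mice the ratio was 0.535 to 1.29 in tumors against 0.204, 0.418 and 1.21 in preneoplastic colon, a difference of 0.84 (exact permutation p = 0.214, n = 6 and 3, smallest possible 0.0238). The wide spread of the Kit-B6 preneoplastic samples came from sample 3, which had the lowest Gzma and the highest Gzmb of its group.

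**Figure D3:**
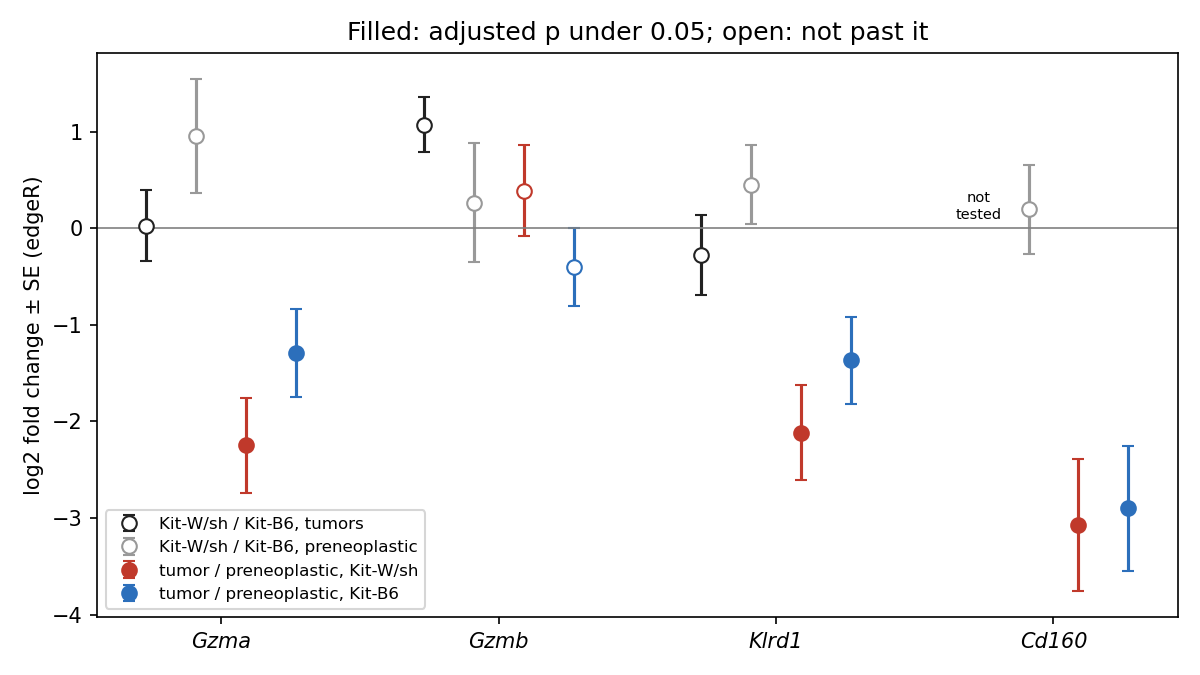
Log2 fold change with its standard error by edgeR (vertical axis) for the 4 genes in 4 comparisons, filled where the adjusted p was under 0.05. Gzma, Klrd1 and Cd160 are filled and below 0 for tumor over preneoplastic colon in both genotypes, and Gzmb is open in all 4 comparisons, with its highest value, 1.07, for Kit-W/sh over Kit-B6 tumors.

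Other genes of cytotoxic lymphocytes were also called lower in tumors between stages. Of 24 measured genes of the cytotoxic lymphocyte list, which includes the 4 genes described, 16 were tested. In Kit-W/sh mice 8, of which 3 were Gzma, Klrd1 and Cd160, were lower and 0 higher in tumors, where 18.8% of all genes were lower, and the list's median log2 change was -1.99 against 0.08 over all genes. In Kit-B6 mice 9, with the same 3 among them, were lower and 0 higher, where 18.9% of all genes were lower, with a median of -1.33 against -0.0027 over all genes. Without the library labelled Kit-W/sh tumor 2, 11 were lower in Kit-W/sh mice, and in Kit-B6 mice 9 were lower and 1, Gzmc, higher. The T cell attractant Ccl5 fell by 2.43 ± 0.48 in Kit-W/sh and by 1.35 ± 0.44 in Kit-B6 tumors, and the dendritic cell attractant Xcl1 fell by 2.87 ± 0.73 and by 2.25 ± 0.67 (edgeR adjusted p of 0.00125 to 0.0232 for these 4 values). The granule membrane gene Nkg7 fell by 2.05 ± 0.65 in Kit-W/sh and by 1.78 ± 0.59 in Kit-B6 tumors. Granzyme C (Gzmc) had positive values, 2.14 ± 1.02 for Kit-W/sh mice and 2.49 ± 1.03 for Kit-B6 mice, that did not pass (edgeR adjusted p = 0.105 and 0.0611) and rested on 6 and 3 preneoplastic counts. Of the 166 Gzmc counts of Kit-W/sh tumors, 70 came from the library labelled tumor 2.

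**Figure D4:**
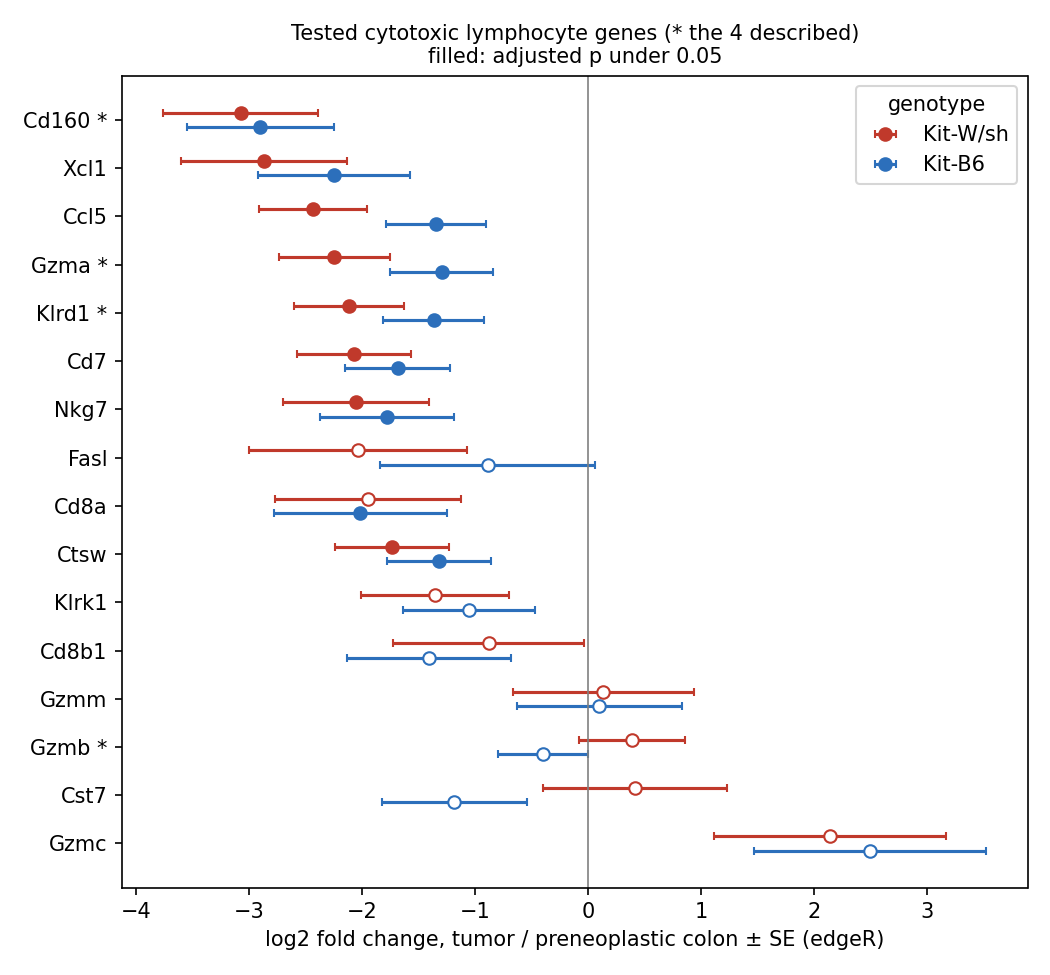
Log2 fold change of tumor over preneoplastic colon with its standard error by edgeR (horizontal axis) for the 16 tested cytotoxic lymphocyte genes, in Kit-W/sh and Kit-B6 mice, filled where the adjusted p was under 0.05. The filled points, 8 for Kit-W/sh and 9 for Kit-B6, all lie below 0, while Gzmb and Gzmm lie near 0 and Gzmc above it.

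Defining markers of killer cells were partly at the floor. Ncr1, an NK cell receptor, gave 3 counts over the 6 Kit-W/sh tumors and 8 over the 6 Kit-B6 tumors. In preneoplastic colon it gave 2 counts in Kit-W/sh and 11 counts in Kit-B6 mice. Scaled by library totals after TMM scaling, the tumor to preneoplastic ratio was 0.259 in Kit-W/sh mice (95% exact interval 0.0297 to 3.10, counting error only). In Kit-B6 mice that ratio was 0.207 (0.0722 to 0.564). Prf1, the pore-forming perforin that granzymes need, gave 21 counts in Kit-W/sh tumors against 4 in Kit-B6 tumors and was too low to test. The ratio of these counts after TMM scaling was 4.35 (95% exact interval 1.47 to 17.4, counting error only). The library labelled Kit-W/sh tumor 2 held 13 of the 21 counts, and without it 8 counts against 4 gave a scaled ratio of 2.01 (0.538 to 9.11). Cd8a, a chain of the cytotoxic T cell co-receptor, averaged 8.78 ± 12.4 CPM in Kit-W/sh tumors, or 3.75 ± 1.89 CPM (n = 5) without the library labelled tumor 2 at 33.9 CPM, and 6.77 ± 4.02 CPM in Kit-B6 tumors (n = 6). It averaged 34.6 ± 9.95 CPM in Kit-W/sh (n = 2) and 27.6 ± 14.4 CPM in Kit-B6 preneoplastic colon (n = 3). The stage difference of Cd8a passed in Kit-B6 (-2.01 ± 0.77, edgeR adjusted p = 0.0446) and not in Kit-W/sh mice (-1.95 ± 0.83, adjusted p = 0.0703), where it passed without the library labelled tumor 2. The 5 measured NK cell genes summed to 48.8 to 138 CPM across Kit-W/sh tumors against 72.9 to 79.6 CPM across Kit-W/sh preneoplastic colon, and to 32.6 to 102 CPM in Kit-B6 tumors against 73.3 to 97.9 CPM in Kit-B6 preneoplastic colon. Of these 5, Il2rb had the largest mean in every group (35.5 to 46.2 CPM), and it also counts among the regulators described below. The sums combine opposite stage changes. Eomes was at 3.91 ± 1.34 for Kit-W/sh mice (edgeR adjusted p = 0.0304) and 2.35 ± 1.11 for Kit-B6 mice (adjusted p = 0.0952). These rested on 1 and 2 preneoplastic counts. Klrk1 was at -1.35 ± 0.65 and -1.06 ± 0.58 (adjusted p = 0.109 and 0.153). The 4 measured genes of CD8 and intraepithelial lymphocytes summed to 18.3 to 143 CPM across Kit-W/sh tumors against 136 to 165 CPM across Kit-W/sh preneoplastic colon, and to 25.2 to 64.2 CPM in Kit-B6 tumors against 88.3 to 236 CPM in Kit-B6 preneoplastic colon. Xcl1 had the largest mean of the 4 in preneoplastic colon, 92.0 CPM in Kit-W/sh and 88.6 CPM in Kit-B6 mice. All 4 had negative stage changes in Kit-B6 mice, and Xcl1, Cd8a and Cd8b1 among them are also on the cytotoxic lymphocyte list. In Kit-W/sh mice Ccr9 was at 1.07 ± 0.63 and Cd8b1 at -0.88 ± 0.84 (edgeR adjusted p = 0.182 and 0.414). The highest sums of Kit-W/sh tumors for both lists came from the library labelled tumor 2, without which the other 5 reached 74.8 CPM for NK cell genes and 37.0 CPM for CD8 and intraepithelial genes. The 5 neutrophil receptor genes summed to 18.1 to 20.6 CPM in Kit-W/sh and 13.9 to 27.5 CPM in Kit-B6 preneoplastic colon, below all tumors. The part of changing cell numbers in the falls of Gzma, Klrd1 and Cd160 was not tested.

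Genes that act on granules and granzymes also differed between stages. Of 7 measured, 6 were tested. In Kit-W/sh tumors 4 were lower and 0 higher, where 39.7% of all genes were called and 18.8% were lower. In Kit-B6 tumors 4 were lower and 2 higher, where 41.1% of all genes were called and 18.9% were lower. In both genotypes the 4 lower genes include Nkg7, which is already counted on the cytotoxic lymphocyte list. Rab27a, which docks cytotoxic granules, fell by 2.49 ± 0.63 in Kit-W/sh and by 2.15 ± 0.58 in Kit-B6 tumors (edgeR adjusted p = 0.00634 and 0.00809). The serine protease inhibitor Serpinb6a fell by 1.47 ± 0.25 and by 0.97 ± 0.23 (adjusted p = 0.000544 and 0.00345), and the initiator caspase Casp8 by 0.50 ± 0.14 and by 0.44 ± 0.13. In Kit-B6 tumors the granule membrane protein Lamp1 rose by 0.59 ± 0.16 (adjusted p = 0.00966), and in Kit-W/sh tumors it was at 0.43 ± 0.19 (adjusted p = 0.0809). Several of these genes are expressed outside lymphocytes, including in epithelium.

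Partners of the 2 receptors included genes lower in tumors. Tnfrsf14 (HVEM), the ligand of CD160, fell by 1.34 ± 0.36 in Kit-W/sh tumors (edgeR adjusted p = 0.00827), and in Kit-B6 tumors it was at -0.69 ± 0.32 (adjusted p = 0.0925). B2m, which encodes the common subunit of MHC class I, fell by 0.98 ± 0.31 and by 1.90 ± 0.27 (adjusted p = 0.0186 and 8.38e-05). Of 9 measured partner genes 5 were tested, of which 2 were lower and 0 higher in Kit-W/sh tumors, and 2 lower and 1 higher (the HVEM ligand Tnfsf14, 1.97 ± 0.66) in Kit-B6 tumors. In Kit-W/sh tumors Tnfsf14 was at 1.56 ± 0.66 (edgeR adjusted p = 0.0700). With 39.7% and 41.1% of all genes called between stages, the count of 2 of 5 in Kit-W/sh tumors is near the share over all genes. H2-T23, the Qa-1 chain that CD94 receptors bind, gave at most 9 counts in any group and was not tested.

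Among 11 tested regulators of cytotoxic genes, 3 were lower and 1 higher in Kit-W/sh tumors, and 1 was lower in Kit-B6 tumors. The 4 of 11 called in Kit-W/sh tumors lie near the 39.7% of all genes, and the 1 of 11 called in Kit-B6 tumors lies below the 41.1% of all genes. Without the library labelled Kit-W/sh tumor 2 the regulators higher in Kit-W/sh tumors were Eomes and Prdm1. Il15, a cytokine that maintains cytotoxic lymphocytes, fell by 1.28 ± 0.39 in Kit-W/sh tumors (edgeR adjusted p = 0.0179), and Il18 by 2.02 ± 0.36 (adjusted p = 0.000603). In Kit-B6 tumors Il15 was at -0.56 ± 0.35 and Il18 at -0.36 ± 0.33 (edgeR adjusted p = 0.204 and 0.393). Neither stage change was called different between genotypes (edgeR adjusted p of the interaction 0.854 and 0.660). Zbtb16, a transcription factor of innate-like T cells, fell by 3.02 ± 0.70 in Kit-W/sh and by 2.57 ± 0.65 in Kit-B6 tumors. The transcription factor Eomes was the gene called higher in Kit-W/sh tumors (edgeR adjusted p = 0.0304), with 104 counts against 1 count in preneoplastic colon. The ratio of these counts after TMM scaling was 18.0 (95% exact interval 3.16 to 717, counting error only). Between genotypes in tumors, edgeR called 0 genes of the cytotoxic list (11 tested), the granule list (6), the partner list (4) and the regulator list (9), with medians of 0.07, -0.10, 0.01 and 0.06 against -0.01 over all genes. Unadjusted p-values were under 0.05 for Gzmb, Tnfsf14 (0.94 ± 0.32), Il15 (-0.74 ± 0.27) and Serpinb6a (-0.56 ± 0.21), 1 of 11, 4, 9 and 6 tested genes of their lists in that order, beside 13.6% of all genes.

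Across the 12 tumors no pair of the 4 genes had a correlation that passed adjustment, with both genotypes pooled. Of the 6 pairs, Gzma with Klrd1 had the highest Pearson r, 0.58 (permutation p = 0.0472, adjusted over the 6 pairs p = 0.271), and a Spearman rho of 0.45 (permutation p = 0.139, adjusted p = 0.416). That r was 0.29 without the 2 tumors farthest from the median of Gzma. Gzma with Gzmb had an r of 0.21 (permutation p = 0.504, adjusted p = 0.756) and a rho of 0.27 (permutation p = 0.403, adjusted p = 0.605), and r was 0.27 without the 2 farthest. Within genotypes the r of the 2 granzymes was 0.56 in Kit-W/sh tumors (exact permutation p = 0.251, n = 6) and 0.65 in Kit-B6 tumors (exact permutation p = 0.186, n = 6). For the other 4 pairs r ran from 0.03 to 0.46 and adjusted permutation p from 0.271 to 0.924. Within a genotype some of these pairs had other values. Gzmb with Klrd1, at 0.04 over both, had an r of 0.88 in Kit-B6 tumors (exact permutation p = 0.0222, n = 6) and 0.34 in Kit-W/sh tumors (exact permutation p = 0.583, n = 6). Gzma with Cd160 had an r of 0.82 (exact permutation p = 0.0472, n = 6) and Klrd1 with Cd160 an r of 0.81 (exact permutation p = 0.0236, n = 6) in Kit-W/sh tumors, against -0.01 and 0.14 in Kit-B6 tumors. These p-values within genotypes are unadjusted, and Kit-W/sh tumors include the library labelled tumor 2, with the highest Gzma, Klrd1 and Cd160 of its group. The r values within genotypes are not given without that library. Cd160 gave only 2 to 15 counts in Kit-W/sh and 1 to 9 counts in Kit-B6 tumors, so its correlations also carry counting error.

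The genes whose levels ranked most like those of each member were given by Spearman rho over the same 12 tumors, as a description of these libraries. For Gzma they were H2-M2 (0.83), Itgb2 (0.77) and Edn3 (0.75). For Gzmb they were Hdc, Ptafr and Chil1, all at 0.85 over both genotypes, between which Gzmb did not overlap and all 3 had higher means in Kit-W/sh tumors. Within the 6 Kit-W/sh and the 6 Kit-B6 tumors rho was 0.49 and 0.49 for Hdc, 0.66 and 0.54 for Ptafr, and 0.029 and 0.77 for Chil1. Hdc makes histamine and Ptafr is the receptor for platelet-activating factor. For Klrd1 they were Cd27 (0.90), a T and NK cell co-stimulatory receptor, Kynu (0.84) and Mef2c (0.83). For Cd160 they were Pparg (0.85), Sp100 (0.84) and H2-Q2 (0.83), out of 799 genes compared. Cd160 was close to the floor in these tumors, with 3 libraries of each genotype at or under 3 counts, so its ranks carry counting error.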

How the data were processed

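RNA of azoxymethane-exposed colon (RNeasy kit) was made into libraries with a QIAseq amplicon panel of immuno-oncology genes per the labels' protocols, and sequenced on a MiSeq, per the series' design text. Each sample had 1 deposited table of whole-number counts, 1 value for each gene, and whether reads or molecular tags were counted is not given in the sources used here. The submitters' processing notes name mm9 and DESeq2 without a version or role. Amplicon positions were not used here. The 5 genomic DNA control amplicons had 0 counts and were left out.

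Counts were tested in R 4.3.3 with edgeR 4.0.16 (TMM, filterByExpr at 10 counts per library and 15 in all, quasi-likelihood F test with robust priors, two-sided, Benjamini-Hochberg over all genes tested, threshold 0.05), with DESeq2 1.42.0 as an alternative. Genotype comparisons used the libraries of 1 stage, and stage comparisons and the interaction 1 fit of all 17. Fold changes come from these fits and levels from 1 scaling of all libraries. Granzyme ratios (0.5 added to both counts) were compared with exact permutation tests whose two-sided p is 2 times the smaller tail. Correlations used log2(CPM + 1) and 100000 permutations in Python 3.11.15.

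Titles gave each sample its group and number. The labels do not say that all samples are from different mice, and the deposited names of Kit-B6 tumors 4 and 5 share a part that may mark 1 animal, so the p-values cover only sample-to-sample spread, which may be technical. No 2 libraries of a group agreed within counting noise (lowest chi-square per degree of freedom 13.0). Intervals and floors cover counting error only. On simulated counts of 827 genes for the tumor genotype comparison, 59 of 92 genes changed 2-fold and 89 of 95 changed 4-fold were recovered. For preneoplastic colon these were 17 of 88 and 60 of 97 (798 genes), for the stage comparison in Kit-W/sh mice 33 of 97 and 77 of 100 (860 genes), and in Kit-B6 mice 46 of 98 and 83 of 99 (861 genes). Unchanged genes were called too, 11 for the stage comparison in Kit-B6 mice and 6 in each other run. All these genes were changed in the same run, with spread from all 17 libraries. Adjustment is stricter where fewer genes change, so these shares may overstate what the genotype comparisons can call. The members, lists, motifs and tests were chosen with earlier results of these data known. The text names the 4 genes, Kit and Cpa3, up to 4 genes with the smallest p per list and comparison, and the 3 most alike genes per member, while Nkg7, Gzmc, Gzmm, Prf1, Ncr1, Cd8a, Prdm1, the neutrophil genes and H2-T23 were chosen after their values were seen.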

Additional observations from a re-analysis of the deposited data

Results flagged for a closer look

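At 71.7 CPM of Klrd1, the library labelled Kit-W/sh tumor 2 stood apart from the other 5 Kit-W/sh tumors, of which the next was at 24.4 CPM. The gap was 0.856 of the group's range, where 0.625 is the critical value for 6 samples. It was the only such sample among 10 groups examined (4 genes and the granzyme ratio in each tumor group), and chance gives about 1 in 20 groups. The same library had the highest Cpa3 of the 17.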

How the results depend on the processing

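Of the settings that left out 1 library, 249 kept direction and call, 15 turned the sign, 6 lost a call and 7 moved a count of called genes, and of the others 167 kept both, 5 turned the sign, 4 lost a call, 1 gained one and 7 moved a count. Gzma between genotypes in tumors was -0.0013 with DESeq2 size factors, -0.0059 in DESeq2, -0.070 with the replicate block, -0.31 without both the library labelled Kit-W/sh tumor 2 and Kit-B6 tumor 4, and -0.25 to 0.14 with 1 library left out. In preneoplastic colon, Cd160 was -0.071 with the block and -0.10 to 0.39 with 1 library left out, Gzmb -0.70 to 0.84 and Gzma -0.031 to 1.51. Gzmb in tumors was 1.06 in DESeq2, where it passed, 0.90 without both libraries, and 0.91 to 1.17 with 1 left out. Called genes in tumors numbered 27 by DESeq2 and 15 without both libraries. In preneoplastic colon they numbered 21 by DESeq2, 0 unscaled, with the block or in the fit of all 17 libraries, and 0 to 16 with 1 left out.

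Between stages in Kit-B6 mice, Gzma was -1.02 unscaled and -0.97 with the block, and -1.60 to -0.94 with 1 library left out. Klrd1 was -1.10, -1.06 and -1.55 to -0.95. The block ended both calls (edgeR adjusted p = 0.0875 for Gzma and 0.0583 for Klrd1). In Kit-W/sh mice Gzma ran from -2.82 to -1.28 and Gzmb from -0.19 to 1.34, and called genes from 132 (without preneoplastic sample 1; 159 without sample 2) to 367. For the interaction, DESeq2 called 1 gene and 0 to 2 were called with 1 library left out, where Cd160 ran from -0.62 to 0.14 and Gzma from -1.53 to 0.015. The cause of these moves was not tested. The Cd160 calls between stages held in every setting run, and the granzyme ratio in tumors ran from 1.03 to 1.39. Of 6 same-numbered tumor pairs, 2 correlated best with their own number (r = 0.39 and 0.30), and r of the others ran from -0.19 to 0.13. So few pairs cannot show whether same-numbered samples are paired, and what the replicate block pairs is not known. With the block the tumor ratio difference was 1.21 (exact permutation p = 0.0313) and Gzmb 1.13. Depth limits Cd160 in tumors, Prf1 and Ncr1.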
